A study of Mus musculus with 18 samples.

Results

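The sites described here are the 5-methylcytosine (m5C) positions in 8 mRNAs for the axoneme, the annulus and cilia, namely Tpgs2, Cfap52, Cfap43, Drc3, Qrich2, Septin4, Septin12 and Ubxn10. They were picked by gene name from the mRNA table, which lists 251 sites in 235 genes, and each of the 8 genes has 1 listed site. The choice was made with earlier results of these data known, and the genotype difference at Tpgs2 and Cfap52 was among them. Their m5C difference between genotypes is therefore given as a description without a p-value, and the model fitted over the whole table is given as a count of sites only.

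The study compared testes of adult Nsun7 knockout mice with testes of adult wild-type (WT) mice. Nsun7 encodes a protein of the NSUN group, most of whose members are RNA m5C methyltransferases, and the series title links it to assembly of the sperm flagellum and calls it catalytically inactive on RNA. Polyadenylated RNA was captured on oligo-dT beads, treated with an ultrafast bisulfite reagent that turns unmethylated cytosine into uracil, and sequenced in 3 knockout and 3 WT libraries. The labels name neither the knockout allele, the strain nor the number of animals, so tests here rest on the scatter among libraries that may be technical repeats.

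The axoneme is the microtubule core of cilia and of the sperm tail, built of doublet microtubules that carry dynein motors and are linked by the nexin-dynein regulatory complex. Its tubulin is modified by chains of glutamate added by polyglutamylases. The annulus is a septin ring between the midpiece and the principal piece of the sperm tail, and flagella and cilia are built from a basal body with the help of intraflagellar transport. Spermatids make these proteins in large amounts while the tail grows. In mRNA, m5C is mostly attributed to NSUN2 and NSUN6.

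Summed over the 251 sites, coverage was 42086 to 55140 reads per knockout library and 45324 to 50751 per WT library. The sites in the 8 genes took 1.82% to 2.27% of it in the knockout and 1.63% to 2.10% in WT. Replicate 3 of both genotypes had a low median coverage per site, 101 reads in the knockout and 103 in WT, against 123 to 149 in the other 4 libraries. By total coverage, replicate 3 was the lowest knockout library, at 42086 reads, and the highest WT library, at 50751. In WT replicate 3, 1 site in Ubb-ps held 8887 of these reads, where the lowest WT library had 1127. This site raised the total of WT replicate 3 and lowered the share of the 8 genes there, 1.63%. Of marker genes for testis cells, none of 7 spermatid genes had a listed site, against 2 of 5 spermatocyte genes (Piwil1 and Adam2), 1 of 5 Leydig cell genes (Insl3) and 1 of 6 Sertoli cell genes (Amhr2). A gene without a listed site may still be expressed, so this table cannot give the make-up of the tissue.

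The m5C level is the share of reads showing C at the position. Unmethylated cytosines that escaped conversion would be counted too, and conversion was not measured here. Levels were spread widely over the 8 genes, from Tpgs2 at 38.5% in the knockout and 55.8% in WT to Ubxn10 at 3.32% in the knockout and 5.07% in WT. The median of the 8 levels was 18.4% in the knockout and 15.1% in WT. Over all 251 sites the medians were 11.1% in the knockout and 10.1% in WT. The 8 sites were less covered, with a median of 66 reads against 129.5 over all sites. Less covered sites tended to have higher levels over the whole table, so the higher medians cannot be read as a trait of these genes. Tpgs2 was the only one of the 8 at or above 50% in either genotype, and it reached this in WT only.

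**Figure D1:**
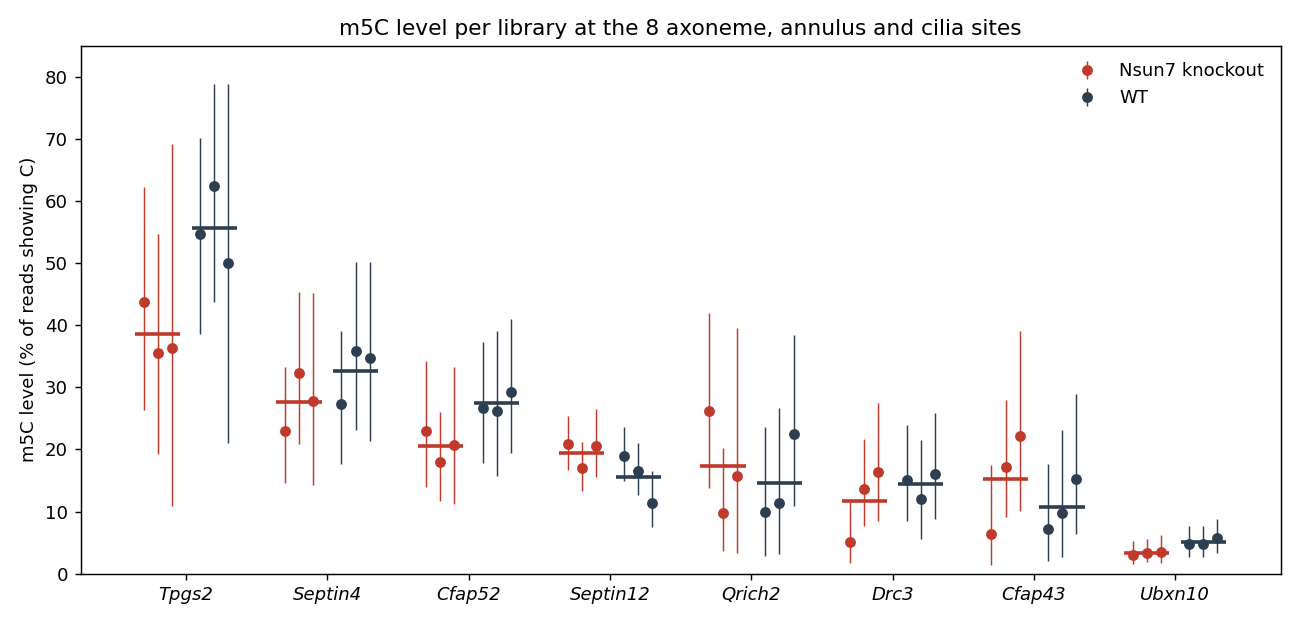
m5C level in percent (vertical axis) of the 8 sites in each library, with the 3 knockout libraries left of the 3 WT libraries for each gene. Points are libraries in replicate order with exact binomial 95% intervals, and thick lines are genotype means. The Tpgs2 knockout libraries lie at 35.5% to 43.8%, under the WT libraries at 50.0% to 62.5%, while the intervals of single libraries overlap.

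Cfap52 encodes a protein held inside the doublet microtubules of the axoneme. Its site, at chromosome 11 position 67836254 (minus strand, gene ENSMUSG00000020904), had 17 of 74, 22 of 122 and 12 of 58 reads showing C in the knockout libraries, levels of 22.97%, 18.0% and 20.7%. In the WT libraries 23 of 86, 16 of 61 and 22 of 75 reads showed C, levels of 26.7%, 26.2% and 29.3%. All knockout libraries lay under all WT libraries, with 3.26 percentage points between the nearest. The means were 20.6% ± 2.47 in the knockout and 27.4% ± 1.66 in WT (SD, n = 3 each), a difference of -6.87 points.

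Cfap43, needed for an intact axoneme in mouse sperm, showed wide scatter. Its site (chromosome 19 position 47804272, minus strand, ENSMUSG00000044948) had 3 of 47, 12 of 70 and 8 of 36 reads showing C in the knockout, or 6.38%, 17.1% and 22.2%. WT libraries had 4 of 55, 4 of 41 and 7 of 46 reads, or 7.27%, 9.76% and 15.2%. The genotypes overlapped, since the lowest library of all was in the knockout and so was the highest. The means were 15.2% ± 8.09 in the knockout and 10.7% ± 4.06 in WT (SD, n = 3 each). The difference of 4.50 points was smaller than the SD among the knockout libraries.

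Drc3 encodes a subunit of the nexin-dynein regulatory complex, which ties neighbouring doublets together. At its site (chromosome 11 position 60255777, plus strand, ENSMUSG00000056598) 5 of 97, 14 of 103 and 11 of 67 knockout reads showed C, levels of 5.15%, 13.6% and 16.4%. In WT 14 of 93, 9 of 75 and 13 of 81 reads did, levels of 15.1%, 12.0% and 16.0%. Knockout replicate 1 was the low library, and the others lay together. The means were 11.7% ± 5.86 in the knockout and 14.4% ± 2.11 in WT (SD, n = 3 each). The difference was -2.65 points with all libraries and 0.637 points without knockout replicate 1, so its sign rested on that library.

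Tpgs2 encodes a non-catalytic subunit of the tubulin polyglutamylase complex. Its site (chromosome 18 position 25301899, minus strand, ENSMUSG00000024269) had 14 of 32, 11 of 31 and 4 of 11 reads showing C in the knockout, or 43.8%, 35.5% and 36.4%. In WT 23 of 42, 20 of 32 and 6 of 12 reads did, or 54.8%, 62.5% and 50.0%. The knockout libraries all lay under the WT libraries, and 6.25 points separated the nearest. The means were 38.5% ± 4.54 in the knockout and 55.8% ± 6.31 in WT (SD, n = 3 each). The difference of -17.2 points was the lowest of all 251 sites, whose differences ran up to 15.5 points.

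The Tpgs2 values rest on few reads. In knockout replicate 3, with 11 reads, 1 read was worth 9.09 points, and the exact binomial 95% interval of its level ran from 10.9% to 69.2%. In WT replicate 3, with 12 reads, the interval ran from 21.1% to 78.9%. These intervals reflect the counting of reads alone, and without molecular identifiers several reads may stem from 1 molecule. By median coverage the site ranked 236th of 251.

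Qrich2 is required for formation of the sperm flagellum in mice. At its site (chromosome 11 position 116356712, minus strand, ENSMUSG00000070331) 11 of 42, 6 of 61 and 3 of 19 knockout reads showed C, levels of 26.2%, 9.84% and 15.8%. WT had 4 of 40, 4 of 35 and 9 of 40 reads, levels of 10.0%, 11.4% and 22.5%. High and low libraries occurred in both genotypes. The means were 17.3% ± 8.28 in the knockout and 14.6% ± 6.84 in WT (SD, n = 3 each). The difference of 2.63 points turned to -1.83 without knockout replicate 1.

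Septin4 and Septin12 encode septins of the annulus. Septin4 (chromosome 11 position 87458206, plus strand, ENSMUSG00000020486) had 20 of 87, 20 of 62 and 10 of 36 reads showing C in the knockout, or 22.99%, 32.3% and 27.8%. In WT it had 20 of 73, 19 of 53 and 16 of 46, or 27.4%, 35.8% and 34.8%. The genotypes overlapped in the middle of this range, and the difference of the means was -5.00 points. Septin4 stood at 27.7% ± 4.64 in the knockout and 32.7% ± 4.60 in WT (SD, n = 3 each).

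Septin12 (chromosome 16 position 4809593, minus strand, ENSMUSG00000022542) was read far more deeply. In the knockout 72 of 346, 65 of 382 and 46 of 223 reads showed C, or 20.8%, 17.0% and 20.6%. In WT 63 of 332, 53 of 321 and 24 of 210 did, or 18.98%, 16.5% and 11.4%. The low library was WT replicate 3, and without it the difference was 1.74 points in place of 3.85. Septin12 averaged 19.5% ± 2.14 in the knockout and 15.6% ± 3.85 in WT (SD, n = 3 each). The signs of the differences at the annulus pair were thus opposite, and neither pair of genotypes was separated.

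Ubxn10 encodes an adaptor that links the ATPase VCP to intraflagellar transport and is needed to form cilia. Its site (chromosome 4 position 138448126, minus strand, ENSMUSG00000043621) had 12 of 390, 14 of 415 and 11 of 314 reads showing C in the knockout, or 3.08%, 3.37% and 3.50%. In WT 15 of 317, 16 of 334 and 18 of 317 reads did, or 4.73%, 4.79% and 5.68%. Each knockout library lay under each WT library, by 1.23 points between the nearest. The means were 3.32% ± 0.219 in the knockout and 5.07% ± 0.530 in WT (SD, n = 3 each).

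The ratio of knockout to WT was lowest at Ubxn10 among the 8 genes, at 0.655, ahead of Tpgs2 at 0.691 and Cfap52 at 0.750. In points the Ubxn10 difference was -1.75. The exact binomial 95% intervals of single Ubxn10 libraries had lower bounds of 1.60% to 1.86% and upper bounds of 5.31% to 6.18% in the knockout. In WT the lower bounds were 2.67% to 3.40% and the upper bounds 7.66% to 8.83%, so the intervals overlapped between genotypes. It was among the deeper sites of the table, 31st of 251 by median coverage.

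Of the 8 sites, 3 had libraries that did not overlap between genotypes (Tpgs2, Cfap52 and Ubxn10), all lower in the knockout, and 5 had overlapping libraries. Over all 251 sites 6.37% lay apart with the knockout lower and 5.18% with the knockout higher. The mean was lower in the knockout at 5 of the 8 sites and higher at 3, against 59.8% of all 251 sites lower and 40.2% higher. The median difference was -2.20 points over the 8 sites and -0.395 over all sites. Because the genes were chosen with this contrast known, nothing can be read from their count.

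A quasi-binomial model of the C reads, fitted at all 251 sites with p-values adjusted by Benjamini-Hochberg, passed 0 sites (0.0%). At an unadjusted p under 0.05 it had 20 sites (7.97%). With dispersions moderated over sites, with limma on the levels and with Fisher's exact test on pooled reads, 0 sites were called as well, with 14, 14 and 15 sites at an unadjusted p under 0.05. Leaving out knockout replicate 3 gave 1 call, in Asxl1 (quasi-binomial model, adjusted p = 0.0284), which is not among the 8 genes.

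**Figure D2:**
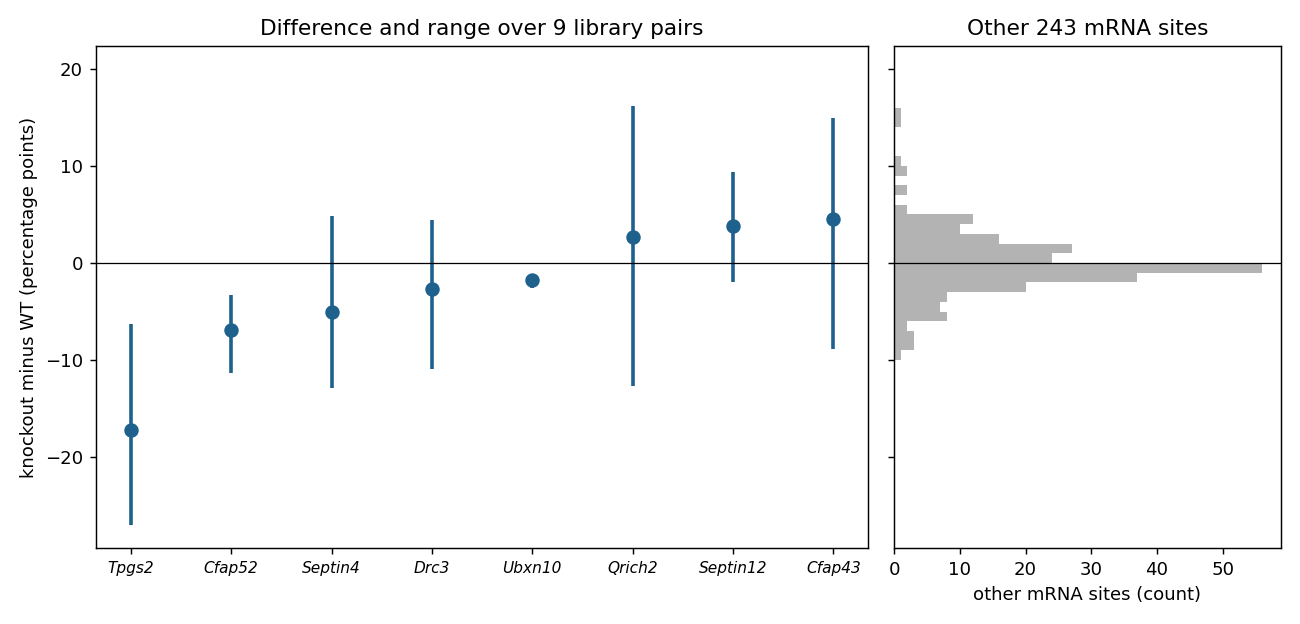
Left, knockout minus WT difference in m5C level in percentage points for each of the 8 sites, with the mean as a point and a line for the range over the 9 pairs of a knockout and a WT library. Right, a histogram of the same difference at the other 243 mRNA sites. The lines of Tpgs2, Cfap52 and Ubxn10 stay under 0 and those of the other 5 sites cross it.

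Averaged over the 8 sites, the level was 18.9%, 18.3% and 20.4% in the knockout libraries and 20.6%, 22.4% and 23.1% in the WT libraries. The 2 groups of libraries lay apart by a narrow margin. The means were 19.2% ± 1.08 in the knockout and 22.04% ± 1.29 in WT (SD, n = 3 each), which puts the knockout at -2.81 points, and the 9 pairs of libraries differed by -4.78 to -0.193. Without Tpgs2 and Cfap52 the difference was 0.263 points, so its sign rested on these genes, whose difference was known when the 8 were chosen. The median over the 8 sites gave another sign. It was 21.9%, 17.1% and 20.7% in the knockout libraries and 17.0%, 14.3% and 19.3% in the WT libraries, a difference of 3.03 points between genotype means, while the median of the 8 sites' own differences was -2.20.

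The scatter between libraries differed among the 8 sites. A dispersion of 1 is what counting reads alone would give. Ubxn10, Cfap52, Tpgs2 and Septin4 stood at 0.120, 0.230, 0.304 and 0.706, closer together within a genotype than counting would give on average. Cfap43, Drc3, Septin12 and Qrich2 stood at 1.54, 1.63, 1.87 and 1.95. The median over all 251 sites was 0.891, with sites from 0.0280 to 4.60. The 3 sites whose genotypes did not overlap were thus the 3 with the lowest dispersion of the 8. Small scatter within a genotype itself makes overlap less likely, so these observations are not independent. With 3 libraries a genotype each of these dispersions is itself imprecise.

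Ordered by the mean over all 6 libraries, the sites ran from Tpgs2 (47.1%) through Septin4 (30.2%), Cfap52 (24.0%), Septin12 (17.6%), Qrich2 (16.0%), Drc3 (13.04%) and Cfap43 (13.0%) to Ubxn10 (4.19%). Tpgs2 exceeded Septin4 in all 6 libraries, by 17.0 ± 9.78 points (SD of the 6 differences), Septin4 exceeded Cfap52 in all 6, by 6.18 ± 5.41, and Cfap52 exceeded Septin12 in all 6, by 6.44 ± 6.82. The ranges of these neighbours over libraries overlapped. Septin12 exceeded Qrich2 in 4 of the 6 libraries, Qrich2 exceeded Drc3 in only 2, and Drc3 exceeded Cfap43 in 3. The mean differences were 1.60 ± 7.97, 2.91 ± 9.73 and 0.0456 ± 4.78 points, so the order of these genes was not settled. Ubxn10 was lowest, its highest library at 5.68% against 6.38% in the lowest Cfap43 library. Of the other 7 genes only Drc3 had a library within its range, knockout replicate 1 at 5.15%.

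Tpgs2, the highest site, was also the least covered of the 8, with a median coverage of 31.5 reads over the 6 libraries, and Ubxn10, the lowest, was among the most covered, at 325.5 reads. Qrich2 and Cfap43 broke this order, with low levels at coverage of 19 to 61 and 36 to 70 reads, as did Septin12 at 326.5 reads. Spearman's rho between median coverage and mean level was -0.405 over the 8 sites and -0.576 over all 251, given as descriptions, since coverage enters the level as its denominator. Every listed site had at least 4 reads showing C in every WT library, and Cfap43 and Qrich2 were at that minimum. In the knockout both also had a library with 3 such reads. Over the whole table, 31 of 251 sites had a knockout library under 4 such reads, and 0 had such a WT library. A minimum of C reads is a larger share of the reads where coverage is low, as at Tpgs2 with 12 reads in WT replicate 3. Whether this floor in WT alone bears on the levels of less covered sites, or on the share of sites that were lower in the knockout, was not tested. The labels do not say how sites came into the table.

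**Figure D3:**
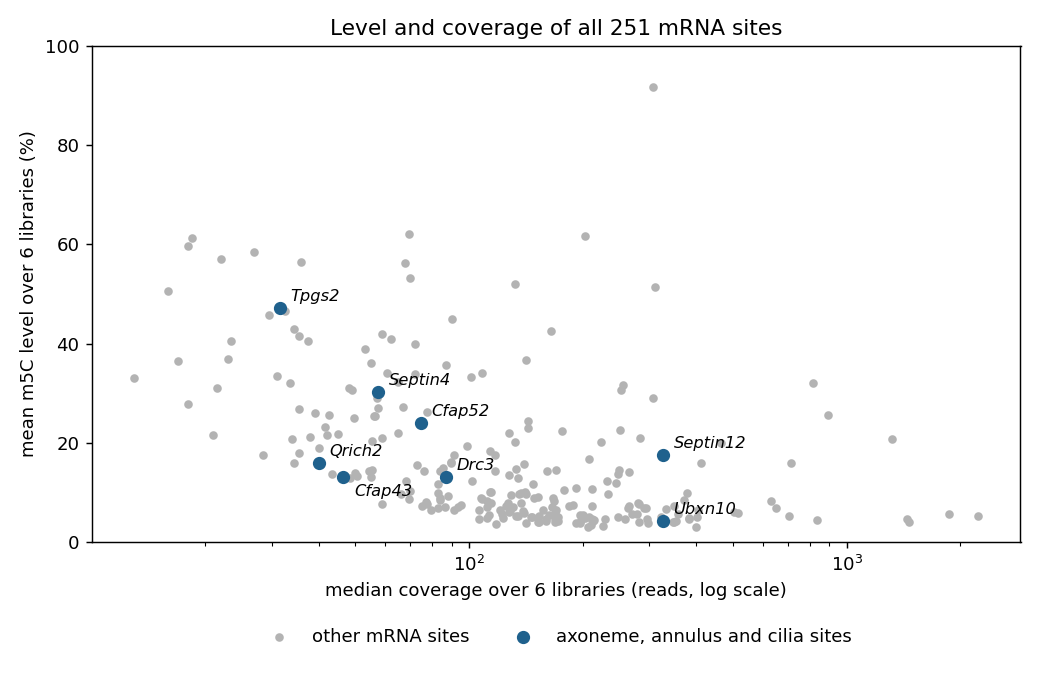
Mean m5C level over 6 libraries in percent against median coverage in reads on a log axis, for the 8 sites (named, blue) and the other 243 mRNA sites (grey). Septin12 and Ubxn10 have similar coverage, 326.5 and 325.5 reads, and levels of 17.6% and 4.19%.

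Coverage was tested between genotypes, since no coverage difference is known to have entered the choice of genes. It counts reads over 1 position of each mRNA, and in whole testis fewer cells of a type and less RNA per cell cannot be told apart. Relative coverage is given in CPM, scaled by TMM to the coverage of all listed sites. By this measure 0 of the 8 sites were separated between genotypes, against 7.97% of all sites. edgeR's quasi-likelihood test with Benjamini-Hochberg adjustment called 0 of 251 sites (0.0%), with 5 (1.99%) at an unadjusted p under 0.05. DESeq2 called 0 of 250, with 0 at an unadjusted p under 0.05. The 8 genes each had an adjusted p of 0.988 in edgeR.

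Ubxn10 averaged 7226 ± 516 CPM in the knockout and 6810 ± 589 in WT (SD, n = 3 each), a log2 fold change of 0.09 ± 0.12 (SE). Septin12 averaged 6032 ± 535 in the knockout and 6001 ± 1055 in WT, with a log2 fold change of 0.01 ± 0.16. Both were among the deeper sites of the table. Cfap52, Drc3, Cfap43 and Septin4 had log2 fold changes of 0.05 ± 0.24, -0.03 ± 0.15, -0.03 ± 0.22 and -0.04 ± 0.25 (SE). Qrich2 had -0.09 ± 0.31.

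The log2 fold change in coverage at Tpgs2 was -0.36 ± 0.44 (SE), with -0.69 without WT replicate 3 and -0.06 without WT replicate 1. Its libraries held 554, 535 and 272 CPM in the knockout and 813, 675 and 274 CPM in WT. Replicate 3 was the low library in both genotypes. Same-numbered libraries count as pairs in coverage by a correlation over 0.1. Replicates 1 and 2 also correlated across numbers, at 0.506 and 0.483, so the pairing of these numbers is uncertain. Within the same-numbered pairs Tpgs2 was lower in the knockout in all 3, as were 15.5% of all sites. Ubxn10 was higher in all 3, as were 14.7%. The Ubxn10 libraries held 6748, 7157 and 7774 CPM in the knockout and 6139, 7048 and 7244 CPM in WT. With the replicate as a block, edgeR's quasi-likelihood test with Benjamini-Hochberg adjustment gave 0 calls, with an adjusted p of 0.616 at Tpgs2 and 0.899 at Ubxn10. The other 6 genes were higher in the knockout in 1 of the 3 pairs each. Across the 8 genes, 3 fold changes were above 0 and 5 below, and the signs of Cfap43, Drc3, Septin4 and Septin12 turned under at least 1 other scaling and those of Cfap52 and Qrich2 with 1 library left out, so no direction is given for them.

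**Figure D4:**
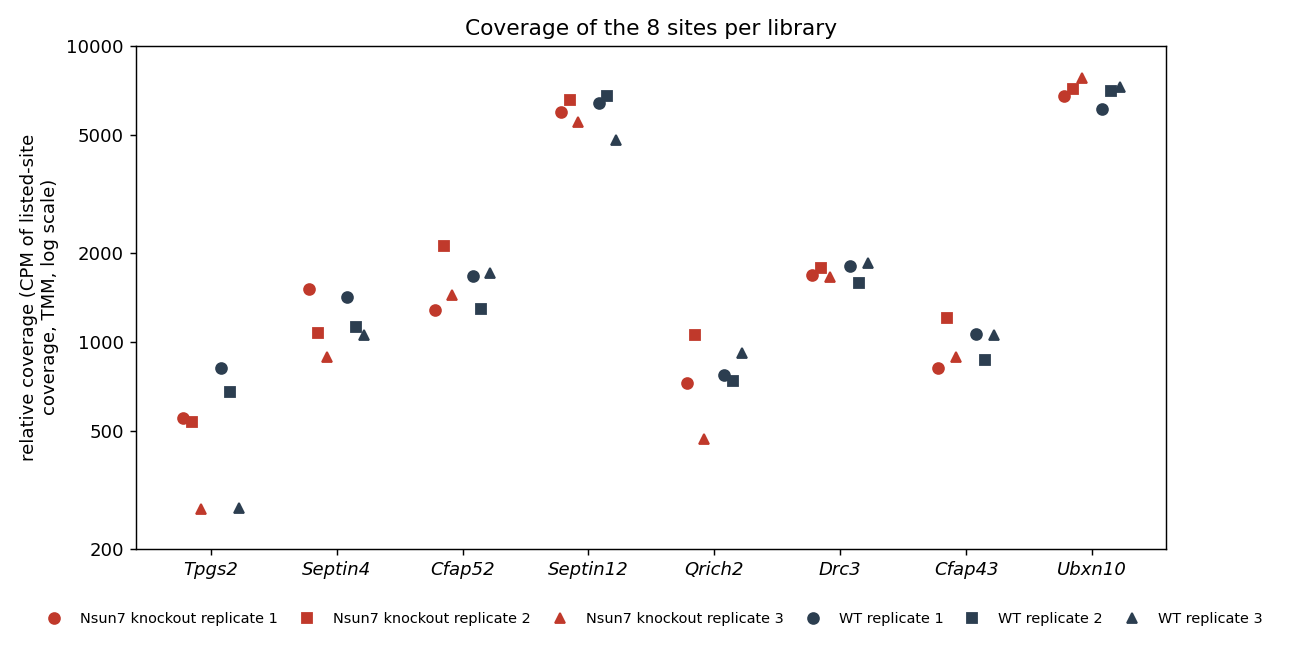
Relative coverage of the 8 sites in each library, in CPM of the coverage of all listed sites after TMM scaling (log axis), with knockout libraries (red) left of WT libraries (dark blue) and a marker shape for each replicate number. Knockout and WT libraries overlap at each gene, and replicate 3 is the lowest library of both genotypes at Tpgs2, at 272 CPM in the knockout and 274 CPM in WT.

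By place in the genome, 4 of the 8 sites lay on chromosome 11 (Drc3, Cfap52, Septin4 and Qrich2), where 12.7% of all listed sites lie. Of the 8 sites, 6 were on the minus strand and 2 on the plus strand, against 45.0% and 55.0% of all sites. The coordinates are those of the deposited table. Whether a site falls in an untranslated region or in coding sequence, and which bases surround it, was not analysed here.

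By the fixed rule of likeness, the listed site outside the 8 genes whose 6 library levels were nearest was sought for each gene among 241 sites with at least 10 reads in every library. Ubxn10 was nearest to Med16, at a Euclidean distance of 1.54 points over 6 libraries, and Med16 stood at 2.72% in the knockout and 4.57% in WT. Cfap52 was nearest to Tbc1d1 (7.20 points), which stood at 19.4% in the knockout and 24.5% in WT. Septin12 was nearest to Tln2 (7.21 points), with 20.7% in the knockout and 15.8% in WT. For Septin4 the nearest was Selenok (8.21 points), for Drc3 and Cfap43 it was Trim36 (6.35 and 11.3 points), and for Qrich2 it was Pank2 (11.1 points). The nearest to Tpgs2 was Hdlbp, at 18.8 points, with 42.9% in the knockout and 46.8% in WT. Tpgs2 libraries held 11 to 42 reads, and 1 read was worth 2.38 to 9.09 points. This distance includes the scatter from counting reads, so it does not set Tpgs2 apart from other sites.

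A wider list of 310 genes for the axoneme, radial spokes, tubulin modification, annulus, sperm tail sheaths and cilia (283 of them found by symbol or synonym in the RefSeq gene table of GRCm38.p6) had 15 genes with a listed site, the 8 above and 7 others. In the quasi-binomial model (Benjamini-Hochberg over all sites), 0 of the 7 others passed in either direction. Kif3a, a motor subunit of anterograde intraflagellar transport, stood at 27.9% ± 6.11 in the knockout and 33.4% ± 8.47 in WT (SD, n = 3 each). Cep164, a protein of the distal appendages that dock the basal body, stood at 22.3% ± 8.94 in the knockout and 29.6% ± 0.899 in WT (SD, n = 3 each), with its knockout libraries between 13.6% and 31.4%. Both genes overlapped between genotypes.

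Ak8, an adenylate kinase of cilia, had 31.8% ± 2.38 in the knockout and 29.4% ± 2.08 in WT (SD, n = 3 each) at coverage of 228 to 326 reads. Ift122, a subunit of the retrograde transport complex, had 8.20% ± 4.62 in the knockout and 4.52% ± 0.640 in WT, with knockout libraries at 12.4%, 9.01% and 3.23%. Ccdc63, required for the sperm tail in mice, was the 1 gene of the 7 whose libraries lay apart, against 11.6% of all 251 sites apart in either direction. Its knockout libraries stood at 4.89%, 6.17% and 4.32%, and its WT libraries at 2.00%, 2.73% and 2.92%. The difference of the means was 2.57 points.

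Spata18, a mitochondrial quality control gene, was the deepest of the 7 and the least variable in the knockout, with 4.27% ± 0.104 there and 4.39% ± 0.863 in WT (SD, n = 3 each) at 650 to 988 reads. B9d1, a protein of the ciliary transition zone, carried 2 sites. At position 61399985 of chromosome 11 it had 4.10% in the knockout and 4.97% in WT, and at position 61403495 it had 11.7% in the knockout and 14.1% in WT. The libraries overlapped between genotypes at both.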

How the data were processed

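The submitters' processing notes name build GRCm39 and, without roles or versions, SAMtools, Bowtie2, HISAT2, Trimmomatic and cutadapt; the rule for listing sites is not stated there. The deposited mRNA table, per the file headers, holds for each library, coverage and C read counts without normalization. Per the file headers it also holds the m5C level as a fraction that the authors rounded, within 0.005 of C reads over coverage. Levels were recomputed from the counts as percentages. No per-sample column was left unmapped (0). The small and large RNA tables were not used here.

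Genes and lists were chosen with earlier results of these data known. Named genes were the 8, list genes with a listed site, called sites and nearest sites. The main tests ran over the 251 mRNA sites, and alternatives over 244 to 251, with Benjamini-Hochberg adjustment at 0.05, two-sided. m5C was tested by a quasi-binomial logistic model with each site's own dispersion, using libraries with at least 10 reads and at least 2 libraries per genotype. Coverage was tested with edgeR 4.0.16 (quasi-likelihood, TMM, filterByExpr, which removed no site). limma 3.58.1 and DESeq2 1.42.0 gave alternatives, as did other scalings, coverage minimums of 1 and 20 and leaving out each library. Both models were tested on simulated data with changed sites. There the m5C model with each site's own dispersion was held to a far lower share of recovered sites than edgeR. Its 0 calls therefore do not show that no site differs. The version with dispersions moderated over sites was held to the same share as edgeR and also called 0 sites. In the simulation the m5C level of the changed sites fell 10-fold in the knockout. The ratios of knockout to WT at Ubxn10, Tpgs2 and Cfap52 were 0.655, 0.691 and 0.750. Recovery of differences of that size was not simulated, so these 0 calls do not show their absence either. Intervals are exact binomial (Clopper-Pearson, scipy 1.17.1).

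Replicate numbers were checked by correlating deviations from genotype means. Same-numbered libraries correlated at 0.513, 0.694 and 0.808 in coverage, which counts as paired with each pair over 0.1 (replicates 1 and 2 also correlated across numbers, at 0.506 and 0.483), and at 0.0904, -0.0132 and 0.0798 in m5C, which was not.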

Additional observations from a re-analysis of the deposited data

How the results depend on the processing

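Precision at Tpgs2, Qrich2, Cfap43 and Septin4 was limited by depth, with lowest coverage of 11, 19, 36 and 36 reads. The count of m5C calls stayed at 0 except without knockout replicate 3, where it was 1 (range 0 to 1 with 1 library left out). The count of coverage calls was 0 under each alternative, with 28 sites at an unadjusted p under 0.05 with the replicate block and 5 without it. The replicate block gave 0 calls for m5C as well (22 at an unadjusted p under 0.05) and changed no call in either measure. The mean difference over the 8 sites, -2.81 points, was -2.81 in same-numbered pairs (replicate block), which is the same by arithmetic and no check. It moved to 3.03 with each library's median over the 8 sites in place of its mean, -1.33 with reads pooled over sites, -1.32 over the 6 sites with at least 20 reads and 0.263 without Tpgs2 and Cfap52. With 1 library left out it ranged from -3.53 to -2.27. Each of the 72 other values of single m5C differences moved by less than the larger of the genotypes' SDs at that site. Some could not move, since the coverage minimum of 1 read left every site unchanged and that of 20 reads changed only Tpgs2 and Qrich2. With 1 library left out, Cfap43 ranged from 1.01 to 8.93 points, Septin4 from -7.64 to -2.66, Septin12 from 1.74 to 5.51, Drc3 from -4.99 to 0.637 and Qrich2 from -1.83 to 6.56. None of the 80 other values of coverage fold changes passed the threshold, and 19 turned in sign. With the library total alone as scaling the log2 values were 0.0315 at Cfap43, 0.0277 at Drc3 and 0.0106 at Septin4, and Septin12 was at -0.00196 with DESeq2's size factors in edgeR and at -0.00194 in DESeq2. With 1 library left out they ranged from -0.234 to 0.0908 at Cfap43, -0.208 to 0.199 at Cfap52, -0.0983 to 0.0109 at Drc3, -0.426 to 0.138 at Qrich2, -0.129 to 0.106 at Septin12, -0.276 to 0.104 at Septin4, -0.687 to -0.0560 at Tpgs2 and 0.00723 to 0.134 at Ubxn10. The cause of these changes was not tested.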
